A study of Homo sapiens with 9 samples.

Results

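The TGF-beta signalling genes described here are 10 transcripts chosen by symbol: the ligands TGFB1, TGFB2 and TGFB3, the receptors TGFBR1, TGFBR2 and TGFBR3, and the intracellular mediators SMAD2, SMAD3, SMAD4 and SMAD7. All 10 were present among the 24462 gene symbols of the count files, each on a single entry, and 9 of them had enough reads to be tested, the exception being TGFBR3. They were followed in U-373MG, an established human line labelled as glioblastoma and astrocytoma; stocks under this name have been found elsewhere to be the related line U-251 MG. The groups were cells given 200 nM of NnK-1 for 48 h, cells given 200 nM of CBRV1-10493 for 48 h, and untreated control cells, with 3 libraries each. Both agents are synthetic peptides modelled on jellyfish sequences that resemble ShK, a sea anemone toxin known to block a voltage-gated potassium channel. The controls were shared by both peptides, the labels name no vehicle or mock peptide for them, and no genetic change is recorded in any group. The treated libraries are called biological replicates, with no word on whether each came from its own culture, so the p-values measure the spread between these libraries, which may be technical.

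In TGF-beta signalling a secreted ligand dimer binds TGFBR2, which phosphorylates TGFBR1. TGFBR1 then phosphorylates SMAD2 and SMAD3, and these join SMAD4 and enter the nucleus to regulate transcription. SMAD7 is induced by the pathway and blocks the receptor, and TGFBR3, also called betaglycan, presents ligand to TGFBR2 and is known to matter most for TGF-beta 2. Glioblastomas are known as producers of TGF-beta, and TGFB2 was first described there as a suppressor of T cells.

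Total counts ran from 11203094 to 13491075 per library, and levels are given in CPM, the count divided by the library total and multiplied by 1e6. A principal component analysis of log2 CPM over all tested genes set NnK-1 replicate 2 far from the rest along component 1 (19.7% of the variance, score 52.1, the others -18.6 to 9.0). CBRV1-10493 replicate 1 stood alone along component 2 (14.7%, score 44.9, the others -14.0 to 9.8). The fits behind the fold changes of the tested TGF-beta genes were also computed without this pair of libraries. The count shares given below were computed with 1 library left out at a time, not without the pair. Astrocytic and glioma markers were detected for 9 of 10 genes, with GFAP at 23.8 ± 1.099 CPM with NnK-1, 22.9 ± 2.78 with CBRV1-10493 and 23.4 ± 4.81 in control cells (mean ± SD, n = 3), and with ALDH1L1 at 0 and AQP4 at 4 counts in all. Of the markers of other cell types, EPCAM, TEK, CX3CR1 and OLIG2 were at 0. The summed level of 6 fibroblast and pericyte markers, nearly all of it COL1A2, was 617 to 767 CPM with NnK-1, 682 to 908 with CBRV1-10493 and 804 to 812 in control cells. COL1A2 is also on the list of known TGF-beta target genes used below. The summed level of 6 leukocyte markers was 3.12 to 5.02, 4.88 to 6.96 and 5.69 to 8.30 CPM in the same groups. Nearly all of the leukocyte sum was CD68 (419 counts over all 9 libraries) and CSF1R (184). PTPRC and AIF1 had 1 count each and ITGAM had 7. The fibroblast and leukocyte sums were lower in every NnK-1 library than in every control library, an order that 7.92% of all tested genes had. The summed markers of neurons, oligodendrocytes, endothelial and epithelial cells overlapped between these groups (oligodendrocytes 44.9 to 53.8 CPM with NnK-1, 49.7 to 54.6 in control cells). TGFB1, TGFB3 and TGFBR2 were also lower in every NnK-1 library, and any part of the marker sums in those results was not tested.

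The ligand genes TGFB1 and TGFB2 had the smallest p of the 9 tested genes for NnK-1 over control and between the peptides, and the stretch before each gene start is shown because the pair is built differently. The sequences are RefSeq's 250 bases upstream of the gene start, build GRCh38.p14, 5′ to 3′ on the gene's strand, at chr19:41353923-41354172 (minus strand) and chr1:218345086-218345335 (plus strand). In GENCODE 29, on the same build, TGFB1 spans chr19:41301587-41353911 and TGFB2 chr1:218346235-218444619; the counts were made on hg19, and no position was carried between builds. Capitals mark the Sp1 box GGGCGG on either strand (read as CCGCCC on the other) and the TATA box TATAAA.
TGFB1: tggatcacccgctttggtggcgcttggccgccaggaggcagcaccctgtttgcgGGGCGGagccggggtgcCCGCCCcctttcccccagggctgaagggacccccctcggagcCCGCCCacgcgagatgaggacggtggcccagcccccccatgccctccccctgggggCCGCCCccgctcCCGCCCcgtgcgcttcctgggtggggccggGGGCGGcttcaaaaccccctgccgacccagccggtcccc
TGFB2: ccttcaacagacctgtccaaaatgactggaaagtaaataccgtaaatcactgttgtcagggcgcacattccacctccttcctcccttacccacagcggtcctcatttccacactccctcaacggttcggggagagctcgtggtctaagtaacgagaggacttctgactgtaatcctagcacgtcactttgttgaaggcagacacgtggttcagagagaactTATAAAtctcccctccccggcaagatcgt
The TGFB1 stretch was 76.8% G and C and held 6 Sp1 boxes and no TATAAA. The TGFB2 stretch was 50.4% G and C and held no Sp1 box and 1 TATAAA, whose first base lay 29 bases before RefSeq's gene start. That start lies upstream of the TGFB2 start in GENCODE 29, so the distance depends on the annotation. Of 35116 RefSeq promoter windows of this length, 42.6% held GGGCGG and 10.7% held TATAAA on either strand. The SMAD-binding palindrome GTCTAGAC was in 0.182% of windows and in none of those of the 10 genes. A window of TGFB3, not shown, also held TATAAA, and no TGFB3 window held GGGCGG on either strand. TGFB3 thus resembled TGFB2 in these letters. Its log2 fold change for NnK-1 over control was -0.38, the sign of TGFB1. The matches describe letters in a window and say nothing of which factor is bound, and a link to the levels was not tested.

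Among the 10 genes SMAD3 and TGFB2 were by far the most abundant. In control cells SMAD3 stood at 323.5 ± 16.8 CPM and TGFB2 at 153 ± 4.79 CPM (n = 3). All others were below 30 CPM: SMAD2 at 28.9 ± 4.15, TGFBR1 at 27.7 ± 2.87, TGFB1 at 20.4 ± 3.12, SMAD4 at 13.8 ± 0.696, TGFB3 at 13.5 ± 2.95, TGFBR2 at 8.84 ± 0.532, SMAD7 at 1.04 ± 0.744 and TGFBR3 at 0.335 ± 0.228 CPM. SMAD2 and TGFBR1 overlapped in their control libraries, as did SMAD4 and TGFB3. The design text describes libraries of 3′ ends, in which a count stands for a transcript end whatever the transcript's length. The kit's catalogue number in the labels could not be matched to that method here, so whether counts depend on length is uncertain, and levels are given both as they stand and divided by transcript length. Per kilobase of the longest coding transcript in GENCODE 29, the control level was 51.8 CPM for SMAD3, 30.2 for TGFB2, 7.37 for TGFB1, 5.33 for TGFB3, 4.25 for TGFBR1, 1.91 for TGFBR2, 1.57 for SMAD4, 0.838 for SMAD2, 0.236 for SMAD7 and 0.0518 for TGFBR3. SMAD3 and TGFB2 led on either scale, also per kilobase of coding sequence (243 and 122 CPM over all 9 libraries). The place of SMAD2 depended on the scale, since its longest coding transcript spans 34526 bases and its coding sequence 1401. SMAD2 therefore stood at 0.757 CPM per kilobase of transcript and 18.6 per kilobase of coding sequence over all 9 libraries.

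**Figure D1:**
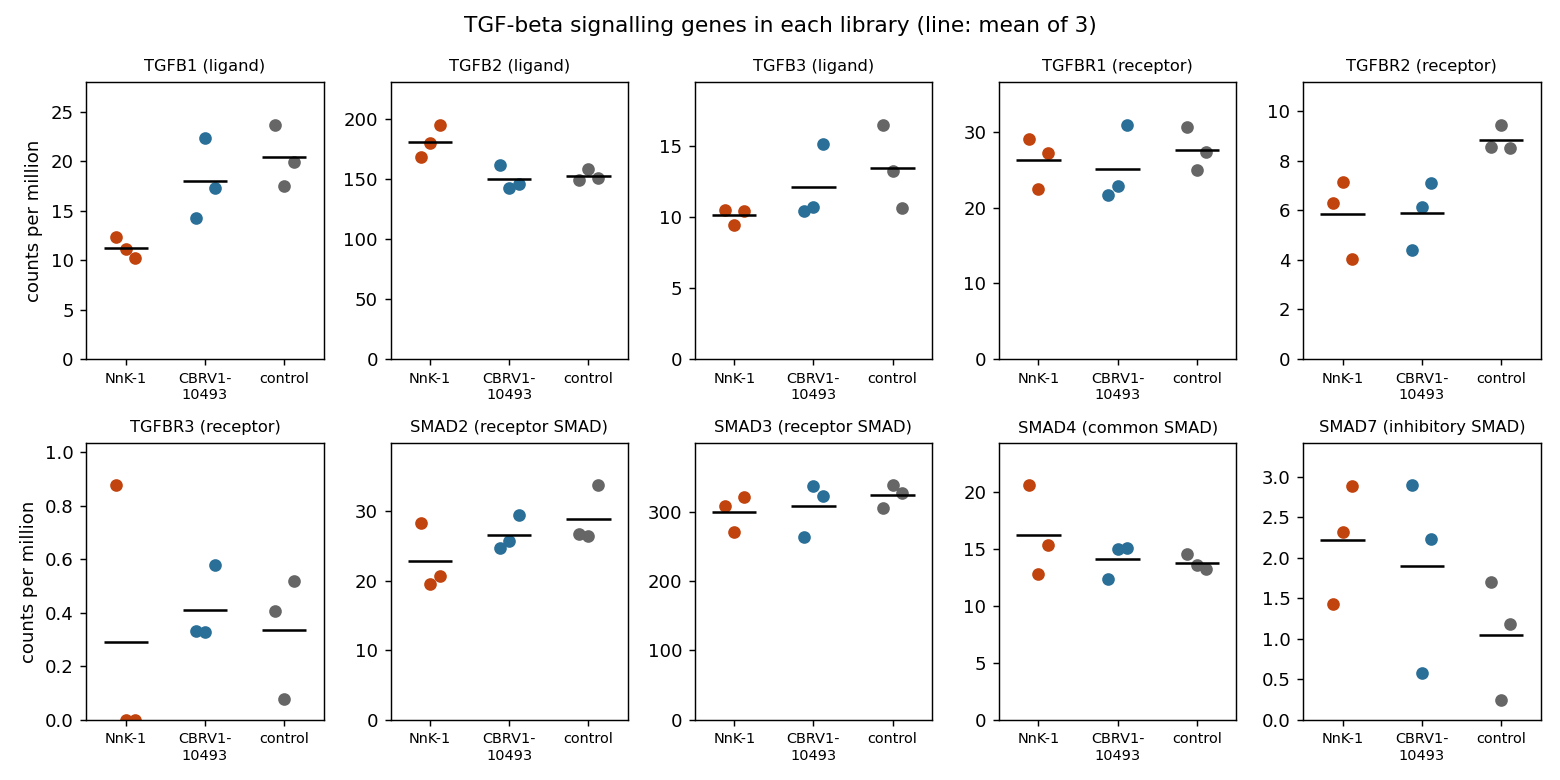
Levels in CPM (vertical axes, each from 0) of the 10 genes in the 9 libraries. Points are libraries, in replicate order from left to right within a group, and the line is the mean of 3; in the 3 NnK-1 libraries TGFB1, TGFB3 and TGFBR2 lie below all controls and TGFB2 above them.

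The first question was how the ligand transcripts compared between NnK-1 and control cells. TGFB1, the best known of the 3 isoforms, was at 12.4, 11.2 and 10.2 CPM in NnK-1 libraries, against 23.7, 17.5 and 19.9 CPM in control libraries. Every NnK-1 library lay below every control library, and the fitted level was 0.562 times that of control cells (log2 fold change -0.83, 95% interval -1.25 to -0.41); 13.0% of all tested genes had groups that did not overlap in this comparison, 7.92% with NnK-1 lower and 5.08% with NnK-1 higher. Of the 13676 genes tested by edgeR's quasi-likelihood test, 10 had a smaller p than TGFB1 (unadjusted p = 0.000534). Yet its p adjusted over all genes was 0.499 by edgeR. That was the smallest of this comparison and was shared with those genes and with genes of larger p. Fewer cells with a transcript and less of it per cell cannot be told apart in bulk RNA. TGFB2 went the other way: it was at 168, 180.3 and 196 CPM in NnK-1 libraries, against 149.5, 158 and 151 CPM in control libraries. The groups did not overlap, with a log2 fold change of 0.27 (interval 0.07 to 0.48), and the adjusted p by edgeR was 0.585. TGFB3 was at 10.52, 9.46 and 10.4 CPM in NnK-1 libraries, against 16.5, 13.3 and 10.6 CPM in control libraries. The NnK-1 libraries lay below the controls by a narrow margin, and the interval of the log2 fold change of -0.38 reached from -0.85 to 0.09; without control replicate 1 the value was -0.21.

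With CBRV1-10493 the fitted log2 fold changes of the ligands over control cells lay between -0.17 and -0.01. TGFB1 was at 14.3, 22.4 and 17.3 CPM in CBRV1-10493 libraries, overlapping the control libraries, with a log2 fold change of -0.17 (interval -0.58 to 0.24). TGFB2 was at 162, 143 and 146 CPM, with a log2 fold change of -0.01 (interval -0.22 to 0.20). TGFB3 was at 10.4, 10.7 and 15.1 CPM, with a log2 fold change of -0.14 (interval -0.61 to 0.33). A missed threshold does not show that the groups were alike: the intervals leave room for any value within them. Without CBRV1-10493 replicate 1 the log2 fold change of TGFB1 was -0.03, and without CBRV1-10493 replicate 2 it was -0.35.

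Between the peptides, which share dose and time, TGFB1 and TGFB2 again stood out among the ligands. TGFB1 had a log2 fold change of 0.67 for CBRV1-10493 over NnK-1 (interval 0.24 to 1.09, unadjusted p = 0.00370 and adjusted p = 0.994 by edgeR). Every CBRV1-10493 library lay above every NnK-1 library, as in 4.71% of all tested genes; the reverse order held for 4.17%. TGFB2 had a log2 fold change of -0.28 (interval -0.49 to -0.08, unadjusted p = 0.00925 and adjusted p = 0.994 by edgeR), with every CBRV1-10493 library below every NnK-1 library. These values and those against control cells rest on the same NnK-1 libraries and are not separate evidence. For TGFB3 the log2 fold change was 0.24 (interval -0.23 to 0.71). This was the 1 pair of peptides compared, and neither ligand passed after adjustment.

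Because the ligand isoforms were read in the same library, their shares do not depend on how libraries are scaled. TGFB2 made up 88.0%, 89.7% and 90.5% of the ligand counts in NnK-1 libraries, 86.7%, 81.2% and 81.8% in CBRV1-10493 libraries, and 78.8%, 83.7% and 83.1% in control libraries. Each share rests on 2151 to 2622 counts, and the 95% Wilson interval of NnK-1 replicate 1, the lowest of its group, was 86.7% to 89.3%, against 82.2% to 85.1% for control replicate 2, the highest of its group. Intervals of this kind cover counting error only. The mean share was 7.52 percentage points higher with NnK-1 than in control cells, and all NnK-1 libraries lay above all control libraries. The shares are made from the same counts as the ligand levels above and are not separate evidence. The exact two-sided permutation test gave p = 0.10, the smallest that 3 against 3 libraries allow, and 0.30 after Benjamini-Hochberg adjustment over 9 share comparisons. CBRV1-10493 minus NnK-1 was -6.15 points (exact permutation p = 0.10, adjusted 0.30), and CBRV1-10493 minus control was 1.37 points (exact permutation p = 0.60, adjusted 0.771). TGFB1 held 5.58% ± 0.868 of the ligand counts with NnK-1, 10.03% ± 2.52 with CBRV1-10493 and 10.9% ± 1.61 in control cells (SD, n = 3). For TGFB3 the shares were 5.01% ± 0.434, 6.72% ± 1.54 and 7.18% ± 1.43 in the same groups.

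**Figure D2:**
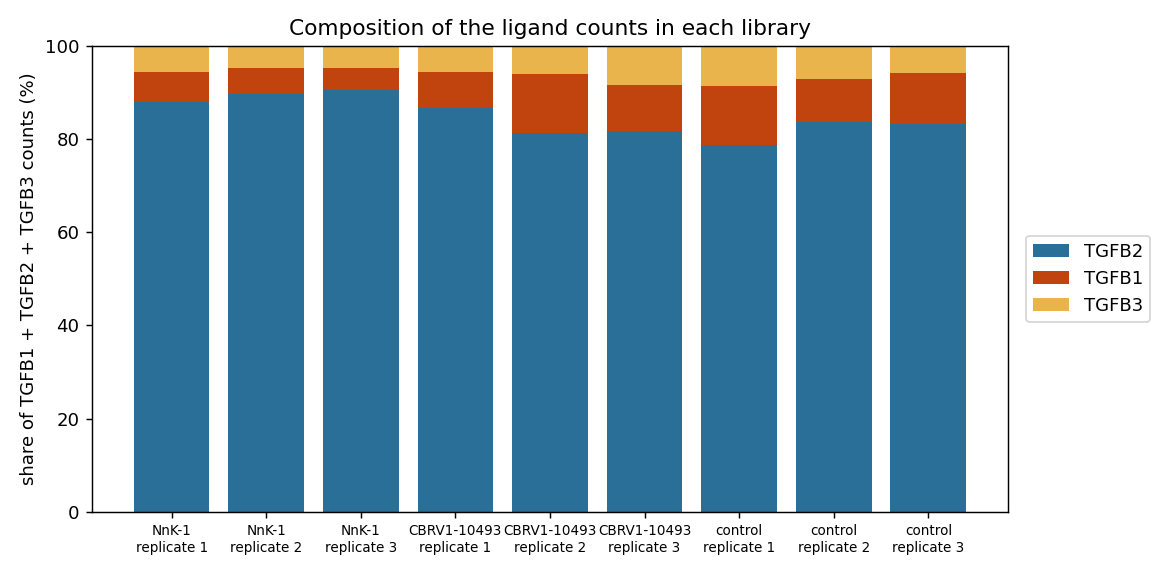
Share of the summed TGFB1, TGFB2 and TGFB3 counts (vertical axis, percent) held by each isoform in each of the 9 libraries. TGFB2 holds 88.0% to 90.5% in the NnK-1 libraries, 81.2% to 86.7% in the CBRV1-10493 libraries and 78.8% to 83.7% in the control libraries.

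Reads of the ligand genes may be shared with genes annotated over them, since neither labels nor files state how a read in overlapping genes was counted, nor whether strand was used. In GENCODE 29 (GRCh38) the noncoding TGFB2-OT1 is 1371 bases long, lies inside the last exon of TGFB2 on the same strand, and ends 623 bases before the end of TGFB2. It is an entry of its own in the count files, where it held 84.4%, 90.2% and 88.4% as many counts as TGFB2 in NnK-1 libraries, 91.1%, 85.3% and 82.9% in CBRV1-10493 libraries, and 82.3%, 85.2% and 84.9% in control libraries. TGFB2-OT1 stood at 159 ± 15.8 CPM with NnK-1, 130.1 ± 14.98 with CBRV1-10493 and 129 ± 5.93 in control cells, with a log2 fold change of 0.34 for NnK-1 over control (interval 0.10 to 0.57, adjusted p = 0.578 by edgeR). These entries cannot be told apart as transcripts here, and they are not separate evidence. For TGFB1 the protein-coding genes TMEM91, CCDC97 and HNRNPUL1 overlap parts of its span on the opposite strand. TMEM91 had log2 fold changes of -0.52 for NnK-1 over control (interval -1.21 to 0.17) and 0.68 for CBRV1-10493 over NnK-1 (interval -0.01 to 1.36), the same signs as TGFB1. For CBRV1-10493 over control it had 0.16 (interval -0.51 to 0.83), the opposite sign to TGFB1 at -0.17. CCDC97 had -0.11 (interval -0.52 to 0.30) and HNRNPUL1 0.15 (interval -0.05 to 0.35) for NnK-1 over control. TGFB3 lies within the span of IFT43, whose log2 fold change for NnK-1 over control was 0.25 (interval -0.14 to 0.64).

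**Figure D3:**
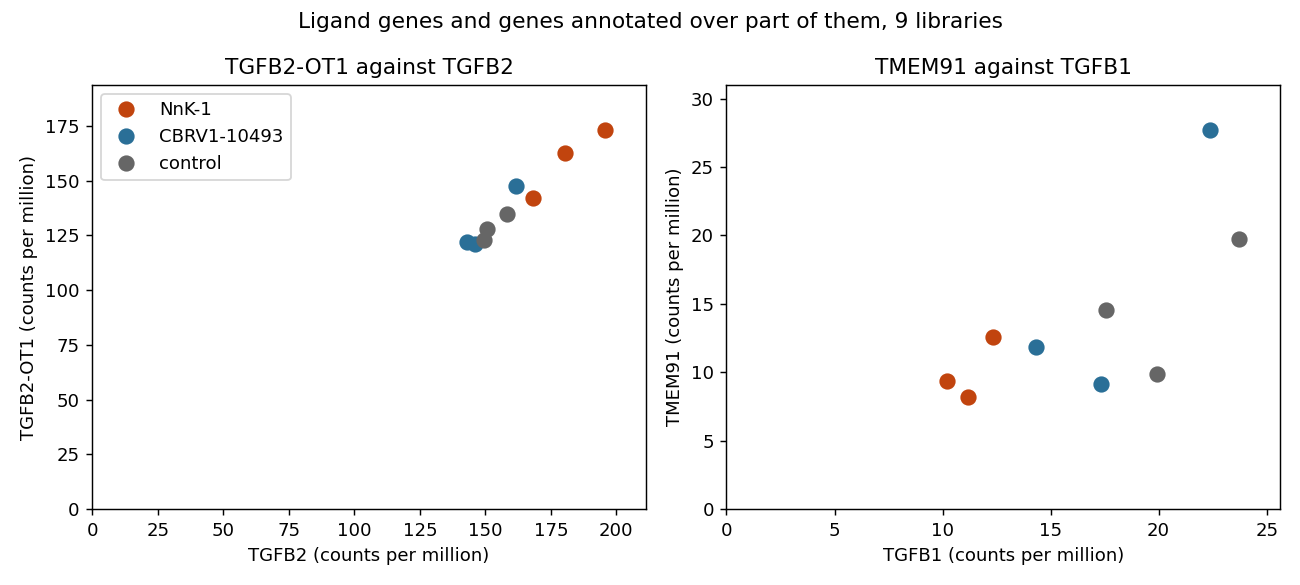
Levels of TGFB2-OT1 against TGFB2 (left) and of TMEM91 against TGFB1 (right), in CPM, with 1 point for each of the 9 libraries. TGFB2-OT1 follows TGFB2 closely, with 82.3% to 91.1% as many counts, while TMEM91 spreads widely and is highest in CBRV1-10493 replicate 2.

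Of the receptors, TGFBR2 lay lower with both peptides. This type II receptor, which binds the ligand first, was at 6.30, 7.14 and 4.04 CPM in NnK-1 libraries and 4.38, 6.14 and 7.10 CPM in CBRV1-10493 libraries, against 8.53, 9.45 and 8.52 CPM in control libraries. No treated library reached a control library; for CBRV1-10493 over control this order held for 4.96% of all tested genes, with 8.88% not overlapping in either direction. The log2 fold change was -0.57 for either peptide, with intervals of -1.17 to 0.03 for NnK-1 (adjusted p = 0.687 by edgeR) and -1.17 to 0.02 for CBRV1-10493 (adjusted p = 1.00 by edgeR). Without NnK-1 replicate 3 that of NnK-1 was -0.37. Both comparisons use the same control libraries, which ran from 105 to 119 counts, and the log2 fold change between the peptides was -0.00 (interval -0.61 to 0.61; 0.35 without both libraries that lay apart).

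TGFBR1, the type I receptor kinase that activates the SMADs, was at 29.2, 22.5 and 27.3 CPM in NnK-1 libraries and 21.8, 22.8 and 31.0 CPM in CBRV1-10493 libraries, against 30.7, 25.0 and 27.4 CPM in control libraries. All groups overlapped, with log2 fold changes of -0.05 for NnK-1 (interval -0.40 to 0.30) and -0.12 for CBRV1-10493 (interval -0.47 to 0.23). TGFBR1 made up 81.8% ± 5.62 of the counts of TGFBR1 and TGFBR2 together with NnK-1, 81.1% ± 2.22 with CBRV1-10493 and 75.7% ± 2.88 in control cells (SD, n = 3). The CBRV1-10493 libraries all lay above the controls (5.45 points, exact permutation p = 0.10, adjusted 0.30), while NnK-1 replicate 2, at 75.9%, lay among them (6.06 points, exact permutation p = 0.30, adjusted 0.45). This share uses the same counts as the levels of TGFBR1 and TGFBR2 and is not separate evidence.

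TGFBR3 was near the limit of detection. It had 11, 0 and 0 counts in NnK-1 libraries, 4, 4 and 7 in CBRV1-10493 libraries and 5, 1 and 7 in control libraries. A count of 0 allows up to 0.268 CPM in NnK-1 replicate 2 and 0.247 CPM in NnK-1 replicate 3, so a difference between groups was not detectable at this depth.

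Neither receptor-activated SMAD, the proteins that carry the signal to the nucleus, passed in any comparison. SMAD3 was at 309, 271 and 321 CPM in NnK-1 libraries and 263, 337 and 322 CPM in CBRV1-10493 libraries, against 305, 338 and 327 CPM in control libraries. The libraries that lay apart were the lowest of their groups, and the log2 fold changes of -0.08 for NnK-1 (interval -0.29 to 0.13) and -0.06 for CBRV1-10493 (interval -0.27 to 0.15) were among the most precise of the 9 genes. SMAD2 was at 28.4, 19.5 and 20.7 CPM in NnK-1 libraries and 24.6, 25.7 and 29.4 CPM in CBRV1-10493 libraries, against 26.7, 26.4 and 33.7 CPM in control libraries. NnK-1 replicate 1 lay among the controls and the other 2 NnK-1 libraries below them, giving a log2 fold change of -0.32 (interval -0.67 to 0.04), against -0.11 (interval -0.46 to 0.24) for CBRV1-10493. The value for NnK-1 was -0.49 without NnK-1 replicate 1 and -0.19 without control replicate 3. SMAD3 held 92.9% ± 1.22 of the SMAD2 and SMAD3 counts with NnK-1, 92.0% ± 0.794 with CBRV1-10493 and 91.8% ± 1.07 in control cells. The share differed by 1.15 points for NnK-1 over control (exact permutation p = 0.30, adjusted 0.45) and by 0.212 points for CBRV1-10493 over control (exact permutation p = 0.90, adjusted 0.90).

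SMAD4, the shared partner of the receptor-activated SMADs, was at 20.6, 12.8 and 15.3 CPM in NnK-1 libraries and 12.3, 14.99 and 15.02 CPM in CBRV1-10493 libraries, against 14.5, 13.6 and 13.2 CPM in control libraries. NnK-1 replicate 1 was the highest of all, and the log2 fold change of 0.26 for NnK-1 (interval -0.16 to 0.68) was 0.07 without it. For CBRV1-10493 it was 0.05 (interval -0.37 to 0.47). SMAD7, the inhibitor induced by the pathway, had few reads: 18, 26 and 35 counts in NnK-1 libraries and 35, 7 and 27 in CBRV1-10493 libraries, against 21, 3 and 16 in control libraries. Its log2 fold changes of 1.11 for NnK-1 (interval -0.37 to 2.58) and 0.87 for CBRV1-10493 (interval -0.61 to 2.35) carried the widest intervals of the 9 genes. Without control replicate 2, which had 3 counts, they were 0.64 and 0.41. Between the peptides the log2 fold changes, CBRV1-10493 over NnK-1, were -0.07 for TGFBR1 (interval -0.42 to 0.28), 0.21 for SMAD2 (interval -0.15 to 0.56), 0.02 for SMAD3 (interval -0.18 to 0.23), -0.21 for SMAD4 (interval -0.63 to 0.21) and -0.23 for SMAD7 (interval -1.66 to 1.20).

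**Figure D4:**
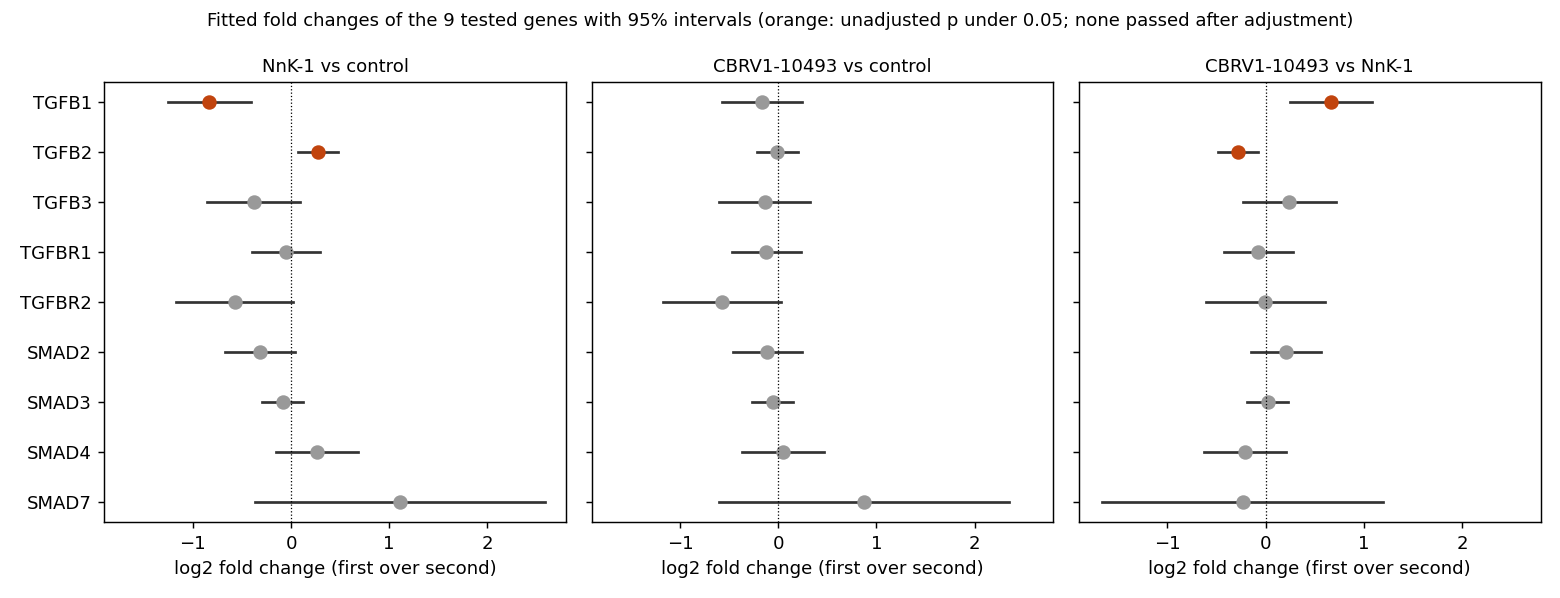
Fitted log2 fold changes (horizontal axis, first group over second) of the 9 tested genes with 95% intervals in the 3 comparisons. Orange points have an unadjusted p under 0.05: TGFB1 at -0.83 and TGFB2 at 0.27 for NnK-1 over control, and TGFB1 at 0.67 and TGFB2 at -0.28 for CBRV1-10493 over NnK-1; none passed after adjustment.

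Counted together for NnK-1 over control, 0 of the 9 tested genes passed edgeR's quasi-likelihood test after adjustment, where 0.00% of all tested genes did. Of the 9, 2 had an unadjusted p under 0.05 (TGFB1 and TGFB2), against 7.32% of all genes, and 4 had groups that did not overlap (TGFB1, TGFB3 and TGFBR2 lower, TGFB2 higher), against 13.0% of all genes. DESeq2, limma-voom and edgeR's exact test passed none of the 9 genes, with adjusted p for TGFB1 of 0.228, 0.559 and 0.0884. When genes with few reads were left in, the same test passed TGFB1 (log2 fold change -0.83, adjusted p = 0.0358); in that setting the estimate of prior degrees of freedom became infinite, so every gene received the same quasi-likelihood spread. Over all 16 alternatives the log2 fold change of TGFB1 ran from -0.93 to -0.72 and its adjusted p from 0.0358 to 0.922. That of TGFB2 ran from 0.22 to 0.34 with adjusted p from 0.201 to 0.922. Without both libraries that lay apart they were -0.84 and 0.26, and for CBRV1-10493 over NnK-1 0.81 and -0.34. For CBRV1-10493 over control, 0 of 9 passed (0.00% of all genes), 0 had an unadjusted p under 0.05 (2.89% of all genes), and 1, TGFBR2, had groups that did not overlap (8.88% of all genes). Between the peptides 0 of 9 passed (0.00%), 2 had an unadjusted p under 0.05 (4.31%) and the same 2, TGFB1 and TGFB2, did not overlap (8.88%). Without NnK-1 replicate 3 the genes with an unadjusted p under 0.05 numbered 1 in place of 2 for NnK-1 over control and between the peptides. For NnK-1 over control they numbered 3 when NnK-1 replicate 1, NnK-1 replicate 2 or control replicate 3 was left out. They also numbered 3 there with library totals and with limma-voom. Without CBRV1-10493 replicate 3 they numbered 1 in place of 0 for CBRV1-10493 over control. DESeq2, limma-voom and edgeR's exact test passed none of the 9 genes for CBRV1-10493 over control or between the peptides either. The median log2 fold change of the 9 was -0.08 for NnK-1 over control, -0.11 for CBRV1-10493 over control and -0.00 between the peptides, with the medians of all genes at 0.00 each.

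The genes whose pattern over the 9 libraries came closest to SMAD3, TGFB2 and TGFBR1, the 3 of the 10 with the highest mean CPM over all 9 libraries, were found by the root-mean-square difference of centred log2 CPM, among 10617 other genes at 5 CPM or more. For SMAD3 they were HNRNPDL (0.029) and SNX18 (0.043), for TGFB2 its overlapping TGFB2-OT1 (0.049) and the kinase gene LYN (0.049), and for TGFBR1 SMS (0.072) and LINC01578 (0.082). The median difference over all genes compared was 0.22, 0.23 and 0.25 in the same order. TGFBR1 led SMAD2 by little in that mean (26.4 against 26.1 CPM), and in control cells SMAD2 was the higher. With 9 libraries and so many genes, close patterns are a description only.

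Around these 10 genes, 131 further symbols of the pathway were listed in the files and 106 were tested, in 7 lists: other ligands, other receptors, latency and activation, other SMADs and partners, turnover, the kinases of the SMAD-independent branch, and known target genes. For NnK-1 over control 0 of 106 passed by edgeR. Unadjusted p under 0.05 was reached by 5 higher and 5 lower, which is 9.43% against 7.32% of all genes, and the median log2 fold change was 0.01 against 0.00. Leaving out 1 library moved the 10 to 17 without NnK-1 replicate 1, 6 without NnK-1 replicate 3, and 4, 5 and 6 without control replicates 1, 2 and 3. Of all genes 1001 had such a p, and 1635 without NnK-1 replicate 1.

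The first of these roles is latency, since the ligand is secreted in an inactive complex. LTBP3, which anchors latent TGF-beta in the matrix, stood at 174 ± 7.21 CPM with NnK-1 against 216 ± 20.3 in control cells (fitted log2 difference -0.29, interval -0.52 to -0.05, adjusted p = 0.620 by edgeR). ITGB8, a subunit of the integrin that frees the active ligand, stood at 181 ± 6.56 against 161 ± 6.26 CPM (0.20, interval 0.01 to 0.39, adjusted p = 0.673 by edgeR). Both LTBP3 and ITGB8, picked for the smallest p of their list, had groups that did not overlap, as did 13.0% of all tested genes. Of the other ligands AMH, the anti-Müllerian hormone, stood at 1.42 ± 0.520 against 3.36 ± 0.243 CPM (-1.21, interval -2.24 to -0.17) and GDF1 had a log2 fold change of 1.16 (interval -0.55 to 2.87). GDF1 was at 0.558, 2.41 and 0.495 CPM in NnK-1 libraries, against 0.731, 0.318 and 0.519 CPM in control libraries. Only NnK-1 replicate 2, a library that lay apart, was above the controls. None of the 12 other receptors tested had an unadjusted p under 0.05; the smallest p belonged to the coreceptor RGMA (log2 fold change 0.16) and the BMP receptor BMPR1B (0.15). SMAD5, a mediator of the BMP branch, was at 148, 156 and 154 CPM in NnK-1 libraries, against 129, 134 and 136 CPM in control libraries (fitted log2 difference 0.22, interval 0.02 to 0.42, adjusted p = 0.660 by edgeR). The coactivator CREBBP had a log2 fold change of -0.32 (interval -0.62 to -0.01).

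Among turnover genes the ubiquitin ligases WWP2 and RNF111 had log2 fold changes of 0.22 and -0.21, and among the kinases MAP3K7, the kinase TAK1, at 0.24 and the p38 kinase MAPK14 at -0.27, all with intervals that reached across 0. Of 38 tested target genes 19 lay above 0, as did 6926 of all 13676 tested genes. Of the 38, 3 had an unadjusted p under 0.05 on the higher side and 2 on the lower (13.2%, against 7.32% of all genes). ID3, an inhibitor of DNA binding known mainly as a BMP target, was at 686, 691 and 686 CPM in NnK-1 libraries, against 583, 614 and 577 CPM in control libraries (0.24, interval 0.07 to 0.42, adjusted p = 0.578 by edgeR). FN1, the matrix protein fibronectin, stood at 205 ± 13.2 CPM with NnK-1 against 247 ± 18.7 in control cells (-0.25, interval -0.48 to -0.01, adjusted p = 0.672 by edgeR).

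With CBRV1-10493 over control 0 of 106 passed, 1 had an unadjusted p under 0.05 on the higher side and 1 on the lower (1.89%, against 2.89% of all genes); leaving out 1 library at a time gave 0 to 4 such genes. These were SMAD5, at 152 ± 11.5 CPM with CBRV1-10493 against 133 ± 3.38 in control cells (0.20, interval 0.00 to 0.41), and STRAP, a protein that holds SMAD7 at the receptor, at 90.3 ± 9.32 against 107 ± 8.92 CPM (-0.23, interval -0.45 to -0.00). The remaining genes with the smallest p were ITGB8 at 0.16 and LTBP3 at -0.18, LEFTY2 at -0.59 and AMH at -0.73, RGMB at 0.22 and ACVR1B at 0.23, SMAD9 at 0.78, NEDD4L at -0.29, TRAF6 at 0.22 and MAPK14 at -0.12, and COL1A1 at 0.25 and FN1 at -0.20 on the log2 scale. All of these intervals reached across 0. Of the 38 target genes 24 lay above 0, with a median of 0.03. Among all 13676 tested genes 6943 lay above 0, with a median of 0.00.

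Between the peptides 0 of 106 passed, and 4 had an unadjusted p under 0.05 on the higher side and 2 on the lower (5.66%, against 4.31% of all genes). The 6 became 14 without CBRV1-10493 replicate 1, 2 without CBRV1-10493 replicate 3, 12 without NnK-1 replicate 1 and 3 without NnK-1 replicate 2. Of all genes 589 had such a p, against 1262 without NnK-1 replicate 1 and 1005 without CBRV1-10493 replicate 1. TGFBI, a secreted matrix protein named for its induction by TGF-beta, stood at 1063 ± 48.9 CPM with CBRV1-10493 against 908 ± 98.8 with NnK-1 (0.21, interval 0.02 to 0.40). TRAF6, the ubiquitin ligase that links the receptor to TAK1, stood at 18.8 ± 2.03 against 13.8 ± 0.870 CPM (0.44, interval 0.04 to 0.83), while MAP3K7 stood at 65.1 ± 2.87 against 78.0 ± 8.50 CPM (-0.27, interval -0.51 to -0.03). On the log2 scale STRAP stood at -0.25, the protease MMP14 at 0.76 and LTBP4 at 0.51, the last 2 with overlapping groups. The others with the smallest p were LEFTY2 at -0.47, GDF6 at -0.52, BMPR1A at -0.56, RGMB at 0.21, CREBBP at 0.27, ZEB2 at 0.26, NEDD4L at -0.31 and ADAM12 at 0.21, with intervals that reached across 0.

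**Figure D5:**
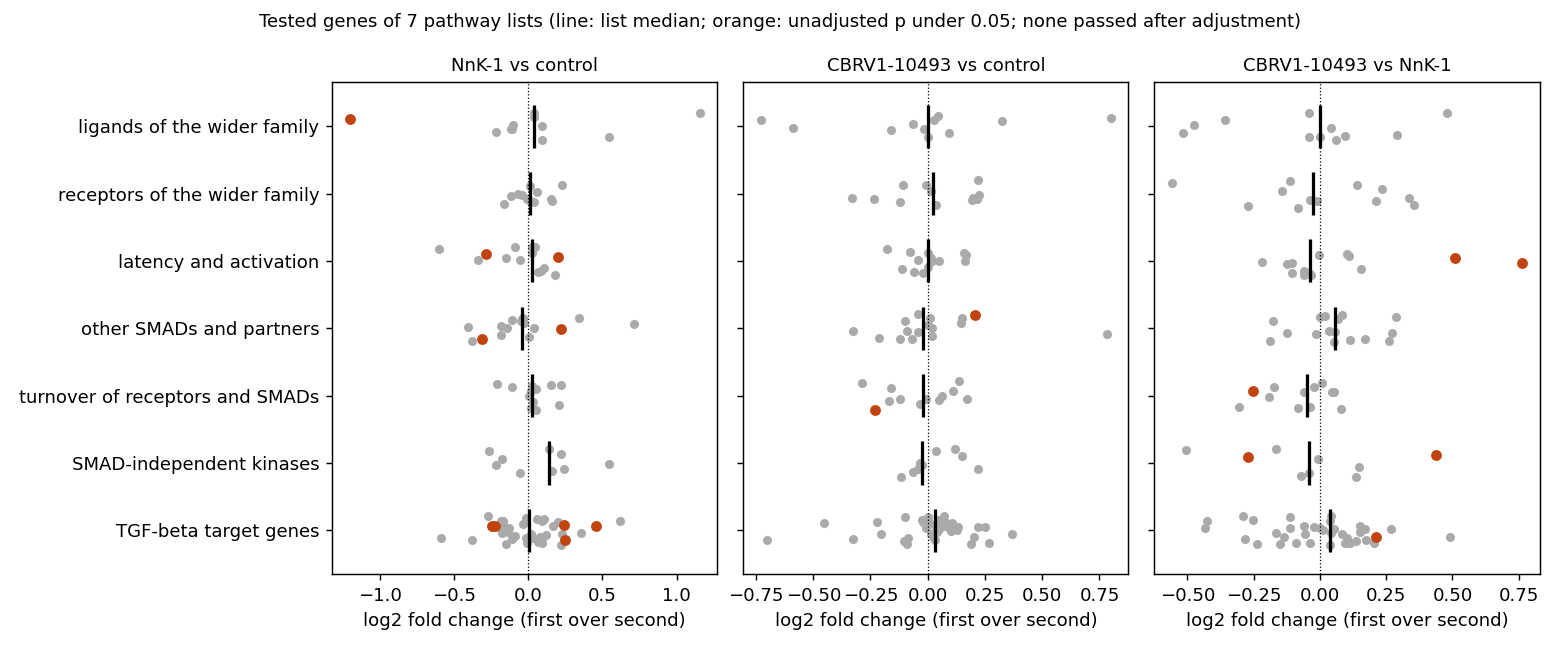
Log2 fold changes (horizontal axis, first group over second; the scales of the panels differ) of the tested genes in 7 pathway lists for the 3 comparisons. The black line is the list's median, orange points have an unadjusted p under 0.05, and the list medians lie between -0.05 and 0.14.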

How the data were processed

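Total RNA of U-373MG cells was profiled in 9 libraries, with 500 ng of RNA each, Lexogen's QuantSeq kit and single-end reads of 75 bp, per the labels. The submitters' processing notes name Bowtie2, bedtools and hg19; no version, annotation or counting option is stated. The deposited files hold raw read counts per gene symbol. Of 25737 entries, those of 1 symbol were summed (24462 symbols). CPM is the count divided by the library total. Genes were kept by filterByExpr of edgeR 4.0.16 at its defaults (minimum count 10, minimum total 15), which left 13676, and fitted with TMM scaling and the quasi-likelihood model in R 4.3.3, all 9 libraries together, two-sided, with Benjamini-Hochberg adjustment over all genes and a threshold of 0.05. DESeq2 1.42.0 and limma 3.58.1 served as alternatives. The fit was tested on data simulated for NnK-1 over control. Each of 5 simulations changed 200 of the 13676 genes, picked at any level. The fit recovered 34.3% of 1.5-fold, 68.1% of 2-fold and 76.7% of 3-fold changes, and 30 of 626 calls were false. These rates average over genes of all levels. The adjustment is stricter when fewer genes change, so the rates may be too high for the real data, where 0 genes passed. Changes of these sizes can thus be missed. All library pairs differed by more than sampling noise. The members and lists were chosen with earlier results of these data known. Genes named outside the 10 are, per list and comparison, the 2 with the smallest p, and the 2 closest in pattern to each of the 3 most abundant members. The alternatives were other scalings, filters and tools, a fit of the compared groups alone, a replicate block and leaving out libraries.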

Additional observations from a re-analysis of the deposited data

How the results depend on the processing

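Over 16 alternatives, log2 fold changes of the 9 tested genes gave 143 values per comparison, SMAD7 being filtered out at 5 CPM or more in 3 libraries. Direction and side of the threshold held for 139 values of NnK-1 over control, 136 of CBRV1-10493 over control and 129 of CBRV1-10493 over NnK-1. In the same order 3, 7 and 14 changed sign, and 1, TGFB1, newly passed. That call needed genes with few reads to be left in; 74 genes then passed for NnK-1 over control (27 higher, 47 lower), against 2 with DESeq2, 8 with edgeR's exact test and 0 by the main test. For CBRV1-10493 over control 6 passed without the filter and 2 by the exact test, and between the peptides 1 passed without the filter. Without both libraries that lay apart, chosen after seeing the data, TGFBR1 turned to 0.04 for NnK-1 over control, SMAD3 to 0.037 for CBRV1-10493 over control and TGFBR2 to 0.354 between the peptides. TGFBR2 between the peptides was also above 0 with library totals (0.014), at 5 CPM or more (0.001) and with limma-voom (0.023). Leaving out 1 library at a time changed signs as follows. NnK-1 over control: TGFBR1 -0.118 to 0.04. CBRV1-10493 over control: TGFB2 -0.072 to 0.026, TGFB3 -0.328 to 0.029, SMAD2 -0.185 to 0.021, SMAD3 -0.129 to 0.036, and in percentage points the TGFB2 share -0.371 to 2.39 and the SMAD3 share -0.355 to 0.702. CBRV1-10493 over NnK-1: TGFBR1 -0.247 to 0.016, TGFBR2 -0.209 to 0.187, SMAD3 -0.046 to 0.119, SMAD7 -0.679 to 0.198, and the TGFBR1 share -3.53 to 2.07. The cause was not tested. Same-numbered libraries did not all deviate together (correlations -0.16 to 0.31). For control with NnK-1 the same-numbered pairs gave 0.31, 0.13 and 0.02, and the other pairs -0.28 to 0.17. Same-numbered pairs gave -0.16, 0.035 and -0.13 for control with CBRV1-10493. For NnK-1 with CBRV1-10493 they gave -0.16, 0.02 and -0.02. With 3 libraries per group, such correlations cannot decide whether the numbers pair the samples. With the replicate block 0 genes passed, TGFB1 was at -0.84 for NnK-1 over control (adjusted p = 0.651 by edgeR) and TGFBR2 at 0.005 between the peptides. TGFBR3, with 39 counts in all, was too shallow to test.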
